A study of Mus musculus with 20 samples.

Results

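Collagens are the main structural proteins of the extracellular matrix, and 43 collagen genes of 24513 genes in the files were measured here in mouse hippocampus. They are the gene symbols made of Col, a number, a and a number that had at least 10 counts in at least 5 of 20 libraries. In all, 44 symbols have that form. Col17a1, the member nearest to the limit, had 10 or more counts in 16 libraries, and Col10a1, the gene left out, had them in 4. All 43 members also passed the filter on low counts for testing, as did 16657 genes in all.

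The hippocampi came from male mice of strain C57BL/6J at 9 months of age, with 5 libraries for each of 4 genotypes. WT mice carried no engineered allele by their labels. The label C3aR KO names a knockout of the receptor for the complement fragment C3a, which C3ar1 encodes; C3ar1 counts, given below, went against that label. PS19 mice carry a human tau transgene with a dementia mutation under the mouse prion promoter, which is active mainly in neurons and also elsewhere. The libraries labelled PS19/C3aR KO combine both, so the C3aR allele is shared by the 2 groups with C3aR KO in their name and the tau transgene by the 2 groups with PS19 in theirs.

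A collagen molecule is a triple helix of 3 chains, which may be the same or come from different genes. Fibril-forming collagens such as types I, III, V and XI build banded fibres. Type IV chains build the sheet-like network of basement membranes, type VI builds beaded filaments, fibril-associated collagens decorate the fibres, and type VIII builds hexagonal lattices. Brain parenchyma holds little fibrous collagen. Its basement membranes line blood vessels, and fibrous collagen lies in the leptomeninges, around larger vessels and in the stroma of the choroid plexus, the tissue that secretes cerebrospinal fluid.

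Gene counts per library ran from 33885850 to 47828111. C3ar1 went against the label of 2 groups. Levels are given as CPM, counts scaled to library size. WT libraries held 1.73 to 2.42 CPM of C3ar1, whereas the libraries labelled C3aR KO held 14.1 to 18.0. PS19 lay between, at 4.98 to 13.7 CPM, and the libraries labelled PS19/C3aR KO reached 14.96 to 18.7. In what follows, C3aR KO and PS19/C3aR KO stand for libraries with that label. Counts over the whole gene do not show whether the deleted part was read. Neuron markers had a summed level of 10580 to 13634 CPM in every library, and markers of thalamus, a neighbouring region, summed to 239.6 to 701.6 CPM. Choroid plexus markers divided the libraries, whatever their genotype. Their score, the mean log2 CPM of 16 marker genes, was 3.86 or higher in 11 libraries and 2.13 or lower in 9, with no library between. The 11 libraries were WT 1, 3 and 4, C3aR KO 1 and 4, PS19 1, 2, 4 and 5, and PS19/C3aR KO 1 and 5. In tissue samples of this kind, fewer cells of a type and less RNA per cell cannot be told apart.

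Collagen transcripts of WT libraries summed to 641.7 to 722.5 CPM, and those of C3aR KO libraries to 686.7 to 733.0. PS19 libraries held 688.5 to 858.8 CPM, and PS19/C3aR KO libraries 651.9 to 971.4. The ranges of the 4 groups overlapped. Per length of exon, the highest level belonged to Col4a2, a chain of the common basement membrane collagen, at a mean of 12.8 CPM per kb over all libraries. Its partner chain Col4a1 stood at 10.3 CPM per kb. Col25a1, a transmembrane collagen of neurons found in amyloid plaques, reached 11.6 CPM per kb. Col9a3, a fibril-associated chain, reached 11.3 CPM per kb and Col19a1, a fibril-associated collagen made by interneurons, 10.9. Next came Col6a1, the chain common to type VI molecules, at 10.6 CPM per kb, then the fibril-forming chain Col11a2 at 7.48 and the fibril-associated Col16a1 at 6.86. The fibrous collagens of scar tissue were lower: Col1a2 stood at 3.25, Col1a1 at 1.92 and Col3a1 at 0.972 CPM per kb. Col17a1, a transmembrane collagen of epithelial anchoring junctions, was the lowest member at 0.0701 CPM per kb, with 5 to 41 counts per library. By counts and not by length, Col4a2, Col25a1, Col4a1, Col19a1, Col11a2 and Col6a1 together gave 49.8% of all collagen counts.

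**Figure D1:**
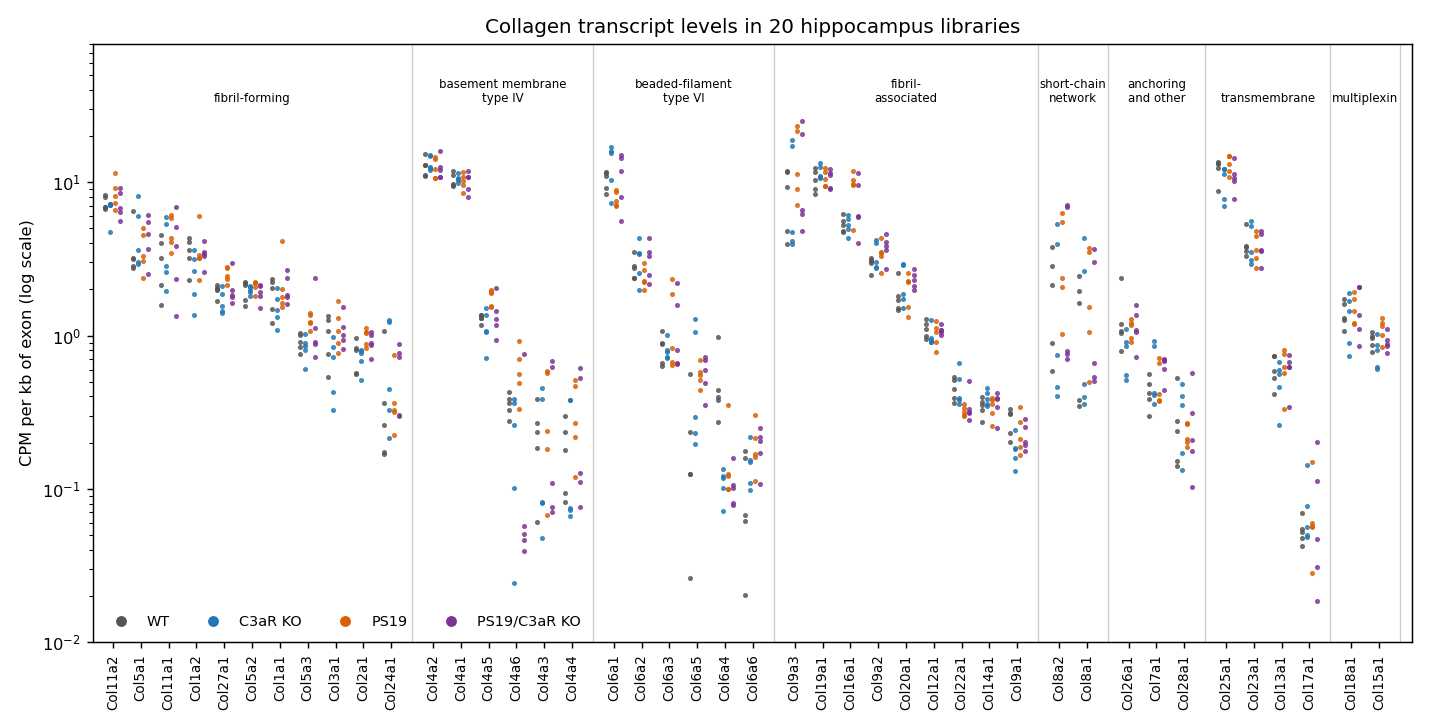
Level of each of the 43 collagen genes in each library, as CPM per kb of exon on a log axis, with genes grouped by structural class and ordered by mean level, and points coloured by genotype label. Basement membrane chains Col4a1 and Col4a2 lie in a narrow band near 10 CPM per kb, whereas the points of Col8a1, Col8a2, Col4a3, Col4a4, Col4a6, Col6a4, Col6a5, Col6a6 and Col17a1 spread by 9.30-fold or more.

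The members differed widely in how steady they were. The ratio of the highest to the lowest library was 1.48 for Col4a1, 1.48 for Col5a2, 1.51 for Col4a2 and 1.61 for Col19a1. It was 12.6 for Col8a1, 17.5 for Col8a2, 14.3 for Col4a3, 37.7 for Col4a6 and 49.3 for Col6a5. Some of these members had low counts: Col4a6 had 6 to 231 counts per library and Col6a5 10 to 472. Chains that form 1 molecule did not all vary together. The Col4a2 to Col4a1 ratio of levels per length stayed between 1.10 and 1.43 in all 20 libraries. Col1a2 stood 1.248 to 2.13 times as high as Col1a1, with which it forms type I collagen. By contrast, the Col4a6 to Col4a5 ratio ran from 0.0334 to 0.473 and the Col9a2 to Col9a3 ratio from 0.118 to 1.05.

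More collagens were called along choroid plexus content than between any pair of genotype labels. In a fit with genotype in the model, 16 of 43 collagens followed the choroid plexus score at an adjusted p below 0.05 in edgeR's quasi-likelihood test. Of these, 10 were higher with the score, where 10.2% of all tested genes were, and 6 were lower with it, where 9.4% were. The score holds no collagen gene. The median slope of the 43 was 0.00052 and that of all genes -0.0047, in log2 units per SD of the score, where 1 SD is 2.15 on the score's log2 scale.

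Both type VIII chains led. Col8a2, which with Col8a1 forms the lattice under corneal and vascular endothelium, was at 16.3, 2.56, 9.19, 12.3 and 3.90 CPM in WT libraries 1 to 5. It stood at 17.2, 1.76, 1.99, 23.3 and 3.21 CPM in C3aR KO, 27.2, 10.3, 4.45, 9.04 and 23.9 in PS19 and 30.8, 3.29, 3.42, 3.05 and 29.8 in PS19/C3aR KO. The 11 libraries with a high choroid score spanned 9.04 to 30.8 CPM and the other 9 spanned 1.76 to 4.45, so they did not overlap, while all 4 genotype groups did. Its slope was 1.39 ± 0.07 (SE), or 2.62-fold per SD (adjusted p = 2.6e-11, edgeR, 20 libraries). Col8a1 spanned 5.35 to 22.2 CPM in the high libraries and 1.77 to 3.39 in the others, with a slope of 1.33 ± 0.08 (SE, edgeR adjusted p = 5.2e-10). How many of all tested genes separate the 11 high libraries from the other 9 without overlap is not given here. Col8a2 exceeded Col8a1 per length in 19 of 20 libraries.

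The sequences before the starts of the 2 type VIII genes are shown because this pair moved together, with Col3a1, a fibrous collagen that did not follow the choroid score, for contrast. They are the 250 bases upstream of the RefSeq start on GRCm38.p6 (mm10), 5′ to 3′ on the gene's strand, with motif matches in capitals. Col8a1 is from chr16:57754738-57754987 (minus strand), Col8a2 from chr4:126286544-126286793 (plus strand) and Col3a1 from chr1:45311288-45311537 (plus strand).
Col8a1: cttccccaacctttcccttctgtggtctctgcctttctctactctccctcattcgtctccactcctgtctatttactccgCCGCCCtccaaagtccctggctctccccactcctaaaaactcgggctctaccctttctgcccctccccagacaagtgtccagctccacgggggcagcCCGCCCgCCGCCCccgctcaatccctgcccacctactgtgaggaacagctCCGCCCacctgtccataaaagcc
Col8a2: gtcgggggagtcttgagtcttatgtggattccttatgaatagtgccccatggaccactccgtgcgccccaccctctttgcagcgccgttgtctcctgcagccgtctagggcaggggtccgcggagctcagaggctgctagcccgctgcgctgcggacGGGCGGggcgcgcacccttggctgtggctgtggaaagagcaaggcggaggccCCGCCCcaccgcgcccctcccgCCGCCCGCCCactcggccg
Col3a1: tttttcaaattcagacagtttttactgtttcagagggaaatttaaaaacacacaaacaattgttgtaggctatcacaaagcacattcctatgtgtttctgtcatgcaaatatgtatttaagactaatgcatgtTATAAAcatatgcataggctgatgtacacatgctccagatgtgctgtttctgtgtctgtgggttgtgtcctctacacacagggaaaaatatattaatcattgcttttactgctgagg

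Motifs were searched on both strands: GGGCGG (the GC box), TATAAA (the TATA box), CCAAT, and TAATCC (a core that OTX factors bind). Col8a1 and Col8a2 each held 4 matches to GGGCGG, of which 2 overlap in Col8a2, and no match to the other 3. Col3a1 held 1 match to TATAAA and none to the others. Over 32536 upstream windows of that length, 33.0% held GGGCGG, 12.3% TATAAA, 33.8% CCAAT and 6.25% TAATCC. In the 37 windows of the 34 members found in the RefSeq table, 22 held GGGCGG, 4 held TATAAA, 13 held CCAAT and 0 held TAATCC. The GC content was 60.8% for Col8a1, 70.0% for Col8a2 and 35.2% for Col3a1, against a median of 52.4% over all windows.

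Col4a3 and Col4a4 are the rarer type IV chains, which join Col4a5 in the basement membranes of kidney, eye and ear. They sit head to head on chromosome 1. A RefSeq start of Col4a4 on the minus strand, 82586849, lies 72 bases from the start of Col4a3 on the plus strand, 82586921. The full RefSeq span of Col4a4 reaches 82587034, so the spans of the 2 genes overlap. Col4a3 spanned 1.55 to 5.82 CPM in the 11 high libraries and 0.408 to 1.58 in the other 9, and Col4a4 spanned 1.81 to 6.21 and 0.668 to 1.28. Col4a4 therefore separated the libraries without overlap, and Col4a3 overlapped through WT library 2. Their slopes were 1.21 ± 0.11 and 1.06 ± 0.06 (SE, edgeR adjusted p = 3.7e-07 and 3.2e-10). Col4a5 rose far less, by 0.20 ± 0.05 per SD (adjusted p = 0.0089, edgeR). Col4a1 and Col4a2 also sit head to head on chromosome 8, with starts 21 bases apart and overlapping gene spans, and neither was called.

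Col9a3, whose product joins Col9a1 and Col9a2 in type IX collagen of cartilage, spanned 27.4 to 77.03 CPM in the high libraries and 12.04 to 21.8 in the others. Its slope was 0.89 ± 0.05 (SE, edgeR adjusted p = 2.7e-10). Its sister chains were not called higher: Col9a2 was lower with the score, at -0.17 ± 0.04 (edgeR adjusted p = 0.011), and Col9a1 had a slope of 0.07 ± 0.08. Of the 3046 exon bases of Col9a3, 234 overlap exons of Tcfl5 on the other strand, and reads there cannot be assigned if counting ignored strand. Also higher with the score were Col17a1 at 0.61 ± 0.15, the fibril-forming Col11a1 at 0.43 ± 0.11, Col18a1 at 0.35 ± 0.06 and Col25a1 at 0.21 ± 0.05 (SE, edgeR adjusted p = 0.0072, 0.010, 0.00045 and 0.0032). Col18a1 is the basement membrane collagen that releases endostatin, and its largest levels, 14.2 and 14.1 CPM, were in PS19/C3aR KO libraries 1 and 5.

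**Figure D2:**
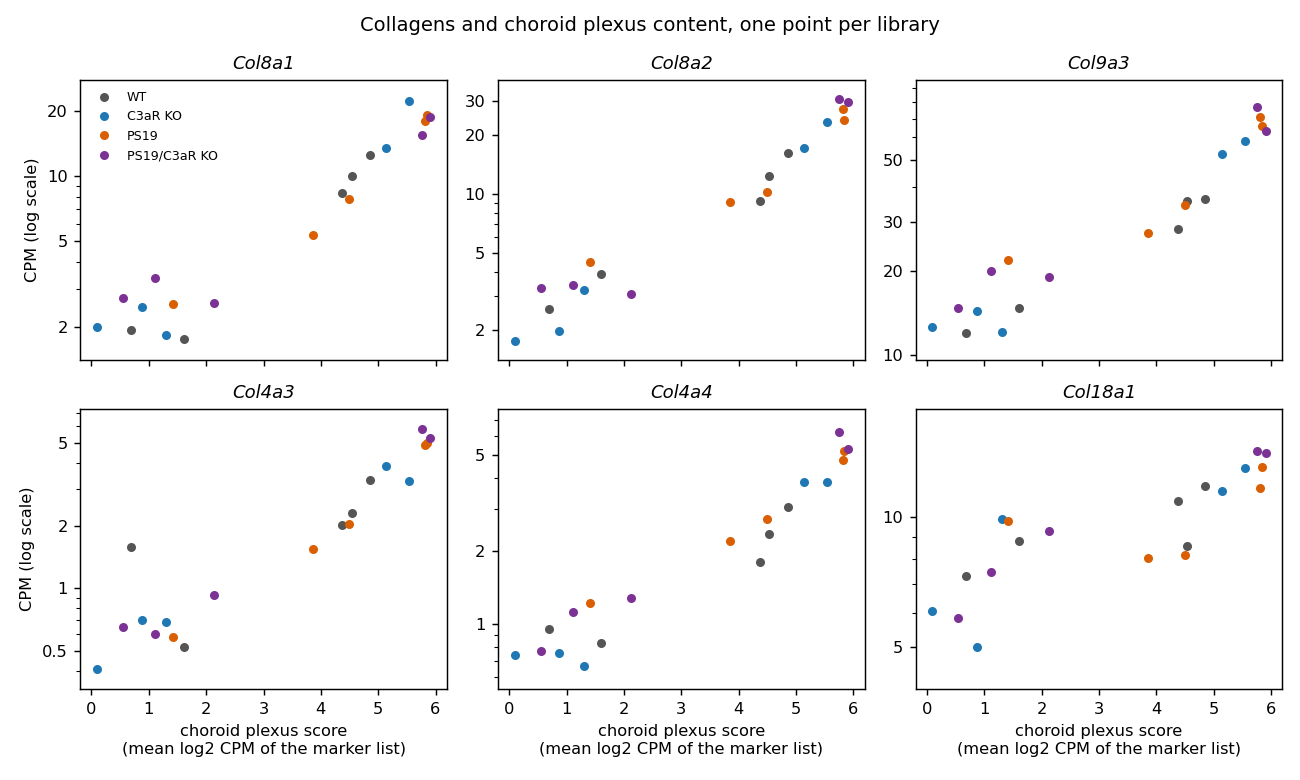
Level of 6 collagens (CPM, log axis) against the choroid plexus score of the library (mean log2 CPM of 16 markers, none a collagen), 1 point per library coloured by genotype label. In Col8a1, Col8a2, Col9a3 and Col4a4 the 11 libraries at a score of 3.86 or more lie above all 9 others, and Col18a1 overlaps. The share of all genes that separate in this way is not given here.

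Within the 11 high libraries alone, 5 collagens were called, Col8a1, Col8a2, Col9a3, Col4a3 and Col4a4. Within the 9 low ones none was, and the slope of Col8a1 there was -0.051 ± 0.094 (SE). Slopes of these 2 fits are per SD of the score within each part, a smaller unit than over all 20 libraries. PS19 library 3 was the only PS19 library among the low ones, so it does not bear on the slopes there. The share of all genes called in these 2 fits is not given here. The collagen counts therefore cannot be weighed against it, and the lack of calls in the low libraries does not show a lack of relation. Ependyma markers, which label the cells lining the ventricles, moved with the choroid markers: they summed to 29.7 to 84.8 CPM in the high libraries and 11.6 to 44.7 in the others. On the ependyma score, a list added after the data were seen, 11 collagens were higher (9.84% of all genes) and 5 lower (8.7%). Col6a3, a large type VI chain, was not called on the choroid score. It stood at 25.3 and 20.1 CPM in PS19 libraries 1 and 5 and at 17.1 and 23.8 in PS19/C3aR KO libraries 3 and 5, against 6.87 to 11.6 in the other 16 libraries. Its slope on the ependyma score was 0.48 ± 0.10 (SE, edgeR adjusted p = 0.0033). The part of ependyma in the choroid slopes was not tested.

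Among the 6 collagens that were lower with the choroid score, Col24a1, a fibril-forming collagen also known from cortical neurons, had the steepest fall, -0.75 ± 0.12 log2 per SD (SE, edgeR adjusted p = 0.00039). It stood at 7.61 CPM in WT library 2 and at 1.20 to 2.60 in the other WT libraries. In C3aR KO it was 8.71 and 9.01 CPM in libraries 2 and 3 and 1.53 to 3.19 in the others. All 7 libraries above 5 CPM were among the 9 with a low choroid score. Col28a1 had a slope of -0.53 ± 0.12, Col5a1, which starts the assembly of fibrils, -0.36 ± 0.09, Col6a2 -0.20 ± 0.06 and Col19a1 -0.11 ± 0.04 (SE), and Col9a2 is given above. None of these 6 was called within the high or the low libraries alone. Col19a1 and Col6a2 were the least firm. The call of Col19a1 ended without any 1 of WT 1, 2 or 3, C3aR KO 1, 2, 3 or 4, PS19 3 or 5, or PS19/C3aR KO 2, 3 or 5 (edgeR adjusted p = 0.053 to 0.109), and that of Col6a2 without WT 2, C3aR KO 1 or 4, PS19 3 or PS19/C3aR KO 2 or 5 (0.051 to 0.092).

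No collagen was called on the endothelium score by edgeR, where 0.21% of all genes were called higher and 0.012% lower with that score. At an unadjusted p below 0.05 there were 4, and the share of all genes at that p is not given here. Endothelium markers, genes of the cells that line vessels, summed to 400.9 to 615.8 CPM and markers of mural cells, the pericytes and smooth muscle of vessels, to 251.6 to 360.4. Col4a1 and Col4a2 were called on none of the 4 scores. On the mural score only Col1a1 was called, at 0.32 ± 0.06 log2 per SD (SE, edgeR adjusted p = 0.037), where 0.156% of all genes were higher and 0.006% lower. That call ended without any 1 of WT 1, 3 or 4, C3aR KO 2, PS19 1, 2, 3 or 5, or PS19/C3aR KO 2, 4 or 5 (adjusted p = 0.051 to 0.225). The largest loss was without PS19 library 3, where the slope was 0.22.

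The fibrous collagens of types I and III followed the markers of fibroblasts and leptomeninges, a list of other genes. Here 3 of 43 were called, all higher, against 0.342% of all genes higher and 0.012% lower. Col1a2 was at 21.7, 17.1, 23.1, 12.4 and 19.3 CPM in WT, 16.9, 9.99, 7.23, 14.2 and 19.3 in C3aR KO, 18.0, 12.3, 32.1, 17.2 and 17.2 in PS19 and 22.0, 13.9, 17.6, 18.2 and 18.7 in PS19/C3aR KO. The lowest value was in C3aR KO library 3, which also had the lowest marker score, 1.90, and the highest was in PS19 library 3, which had the highest score, 3.64. By summed CPM of the markers, PS19 library 3 was not the highest, at 362.7 against 407.2 in PS19/C3aR KO library 1. Its slope was 0.44 ± 0.05 log2 per SD, with an SD of 0.35 on the score's log2 scale (SE, edgeR adjusted p = 0.00012). Col3a1, the type III chain, had a slope of 0.48 ± 0.08 (adjusted p = 0.0065, edgeR) and Col1a1 of 0.36 ± 0.07 (adjusted p = 0.030, edgeR). The calls of Col1a2 and Col3a1 held without each library in turn. That of Col1a1 ended without WT 1, 3 or 4, C3aR KO 1 or 5, PS19 2, 3 or 5, or PS19/C3aR KO 1 or 2 (adjusted p = 0.0501 to 0.0818).

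**Figure D3:**
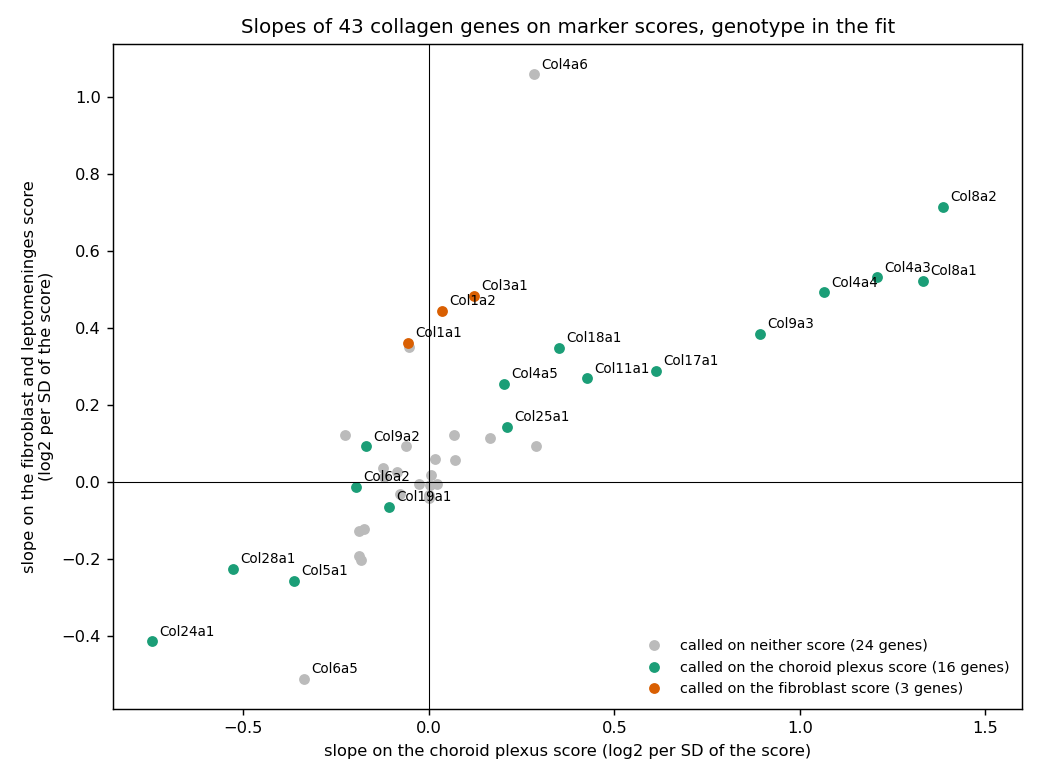
Slope of each of 43 collagens on the choroid plexus score (x axis) and on the fibroblast and leptomeninges score (y axis), both in log2 units per SD of the score with genotype in the fit and coloured by whether edgeR called them. Col1a1, Col1a2 and Col3a1 lie above 0.3 on the y axis and near 0 on the x axis, and Col8a1 and Col8a2 lie farthest right. Col4a6 and Col6a5 are named as the highest and lowest on the y axis and were not called.

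Between PS19 and WT, 2 of 43 collagens were called, Col16a1 higher and Col6a4 lower, where 10.8% of all genes were called (7.5% higher and 3.32% lower). At an unadjusted p below 0.05 there were 8, against 24.8% of all genes. The median difference of the collagens was 0.21 on the log2 scale with 29 of 43 above 0, and the median of all genes was -0.0068. The collagen median was 0.085 without PS19 library 3, 0.13 without WT library 4 and 0.098 with the choroid score in the fit. Of 11 fibril-forming genes, 9 were above 0 and none was called, nor was any of 6 type IV chains or 4 transmembrane collagens. Col4a5 and Col5a3 were higher in all 5 PS19 libraries than in every WT library, as 5.93% of all genes were, and Col22a1, a collagen of tissue junctions, was lower in all 5, as 3.11% were. None of these 3 was called, with log2 differences of 0.46 ± 0.18, 0.46 ± 0.24 and -0.48 ± 0.18 (SE).

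Col16a1, which binds to fibrils and to integrins, stood at 24.8, 32.2, 24.9, 27.4 and 29.2 CPM in WT and at 61.5, 49.96, 54.1, 50.4 and 25.3 in PS19. The libraries labelled C3aR KO had 27.6, 32.03, 29.95, 22.5 and 25.8 CPM and those labelled PS19/C3aR KO 59.6, 31.4, 49.9, 30.8 and 20.8. In PS19, 4 libraries stood above every WT and C3aR KO library and library 5 within their range, and PS19/C3aR KO was split. The difference between PS19 and WT was 0.80 ± 0.23 on the log2 scale (SE, n = 5 each, edgeR adjusted p = 0.034). It lost the call without any 1 of WT 1, 3, 4 or 5 or PS19 1, 2, 3 or 4 (adjusted p = 0.055 to 0.094). Microglia markers, 14 genes of the brain's resident macrophages, moved with it. They summed to 454.8 to 504.7 CPM in WT, 1279 to 1502 in PS19 libraries 1 to 4 and 677.2 in PS19 library 5, and to 956.7 and 1027 in PS19/C3aR KO libraries 1 and 3, against 565.3 to 639.3 in the other 3. With genotype in the fit, the slope of Col16a1 on the microglia score was 0.72 ± 0.10 log2 per SD (edgeR adjusted p = 0.00023), where 2.21% of all genes were higher and 0.084% lower. On the score of astrocytes and reactive astrocytes the slope was 0.62 ± 0.11 (adjusted p = 0.0030, edgeR), where 1.92% were higher and 0.03% lower. That slope lost its call without PS19 library 5 (adjusted p = 0.162, edgeR). No other collagen was called on either score, and without WT library 2 Col6a4 was called on both. With the astrocyte score as a covariate, the difference of Col16a1 between PS19 and WT was -0.46 ± 0.25 and was not called. That score did not overlap between WT (5.03 to 5.42) and PS19 (5.50 to 7.01), so the fit cannot tell its part from that of genotype. On the oligodendrocyte score Col23a1, Col28a1 and Col6a2 were lower, at -0.37 ± 0.06, -0.76 ± 0.14 and -0.32 ± 0.07 log2 per SD (SE, edgeR adjusted p = 0.00073, 0.0042 and 0.012), where 1.96% of all genes were lower and 1.99% higher. On the thalamus score edgeR called no collagen, where 0.216% of genes were higher and 0.006% lower. These 4 lists were scored after the data were seen.

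Col6a4 is a type VI chain on chr9:105990318-106096828 (minus strand, mm10), next to Col6a5 and Col6a6. Its level was 2.02, 7.19, 2.82, 3.24 and 2.91 CPM in WT. It was 0.75, 0.99, 0.86, 0.53 and 0.90 CPM in C3aR KO, 0.90, 0.91, 0.74, 0.73 and 2.60 in PS19 and 0.75, 1.18, 0.58, 0.78 and 0.60 in PS19/C3aR KO. Every WT library stood above all libraries of the other 3 groups except PS19 library 5. Behind these values lie 66 to 295 counts per WT library and 20 to 93 in the others. The fall from WT to PS19 was -1.64 ± 0.36 on the log2 scale (SE, edgeR adjusted p = 0.0064). It stayed called without each library in turn. The call was lost when the Rn45s share described below was added to the fit (-1.42 ± 0.40, edgeR adjusted p = 0.069) and when the astrocyte score was (-0.58 ± 0.50). That score did not overlap between WT and PS19. Gbp2b, a gene outside the collagens, also set WT apart, at 0 to 0.0731 CPM in WT and 2.18 CPM or more in the other 3 groups. Whether WT mice differed from the others by more than the labelled alleles was not tested.

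**Figure D4:**
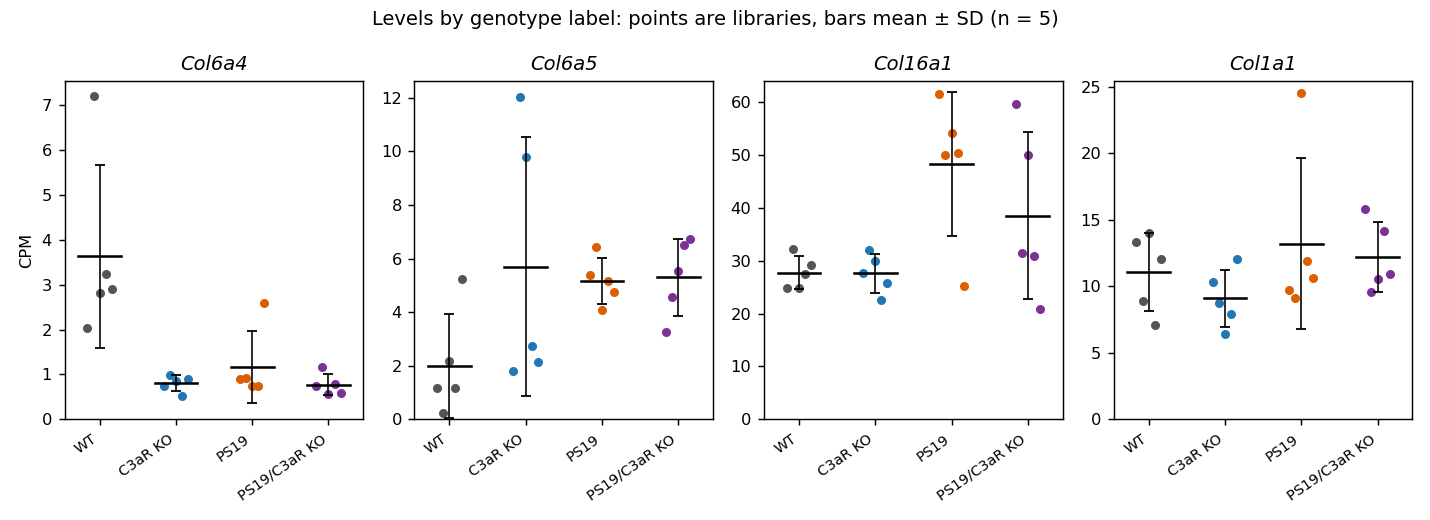
Level of Col6a4, Col6a5, Col16a1 and Col1a1 (CPM, axes from 0) in the 4 genotype groups; points are libraries, horizontal bars the mean and whiskers the SD of 5. Col6a4 lies at 2.02 CPM or more in all 5 WT libraries and at 1.18 CPM or less in the others except PS19 library 5, and 4 PS19 libraries lie above all WT libraries for Col16a1.

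In the libraries labelled C3aR KO, Col6a4 was the 1 collagen of 43 that differed from WT, where 0.06% of all genes were called and 0.018% were lower. At an unadjusted p below 0.05 there were 4, against 6% of all genes, among them Col9a1 at -0.62 ± 0.22 and Col26a1 at -0.72 ± 0.27 (log2, SE). Without WT library 2, where Col26a1 stood at 6.58 CPM, its difference was -0.37 ± 0.23. The label of this group is the one that C3ar1 went against. For Col6a4 all 5 stood below all 5 WT libraries, as 0.54% of all genes did. The difference was -2.17 ± 0.37 on the log2 scale (SE, n = 5 each, edgeR adjusted p = 0.028). DESeq2 gave an adjusted p of 2.5e-05. The call ended without any 1 C3aR KO library and without WT 2 or 4 (edgeR adjusted p = 0.051 to 0.081), with differences of -1.76 to -2.25. Rn45s, a ribosomal RNA precursor read in these files, was 2.85 to 4.48% of gene counts in WT, 0.87 to 3.65% in PS19 and 0.92 to 4.34% in C3aR KO. Only PS19 library 5 and C3aR KO library 1 of these 2 groups reached the WT range. A fit with this share can therefore hardly tell its part from that of genotype. When that share entered the fit, the difference of Col6a4 was -1.90 ± 0.44 and was not called (adjusted p = 0.39, edgeR).

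Col6a5 and Col6a6, the type VI neighbours of Col6a4, went the other way in their means. Col6a5, a type VI chain of skin and lung, stood at 1.17, 0.24, 2.19, 1.17 and 5.22 CPM in WT and at 1.82, 12.03, 9.79, 2.73 and 2.15 in C3aR KO. In PS19 it was 4.09 to 6.42 and in PS19/C3aR KO 3.26 to 6.73 CPM. Only WT library 5 reached the PS19 range. Its differences from WT, 1.37 ± 0.58 in PS19 and 1.51 ± 0.58 in C3aR KO (log2, SE), were not called (edgeR adjusted p = 0.14 and 0.71). Col6a6 differed by 0.99 ± 0.40 in PS19 (adjusted p = 0.13, edgeR). Of 31 other tested genes within 1000 kb of Col6a4, 6 were called between PS19 and WT, 3 in each direction, against 10.8% of all genes. Between C3aR KO and WT edgeR called 0 of them, where 0.06% of all genes were called, and 7 had an unadjusted p below 0.05, against 6% of all genes. Of the 6, Poc1a, Abhd14a and Acy1 differed from WT by -0.94, -0.33 and 0.39 in PS19 and by -0.79, -0.40 and 0.38 in C3aR KO (log2). Mrpl3, Parp3 and Tlr9 differed by -0.19, 1.23 and 0.92 in PS19 and by -0.050, 0.25 and -0.25 in C3aR KO. In the reference annotation, 2 genes on the other strand overlap 127 and 162 of the 7371 exon bases of Col6a4, and neither is listed in the files.

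**Figure D5:**
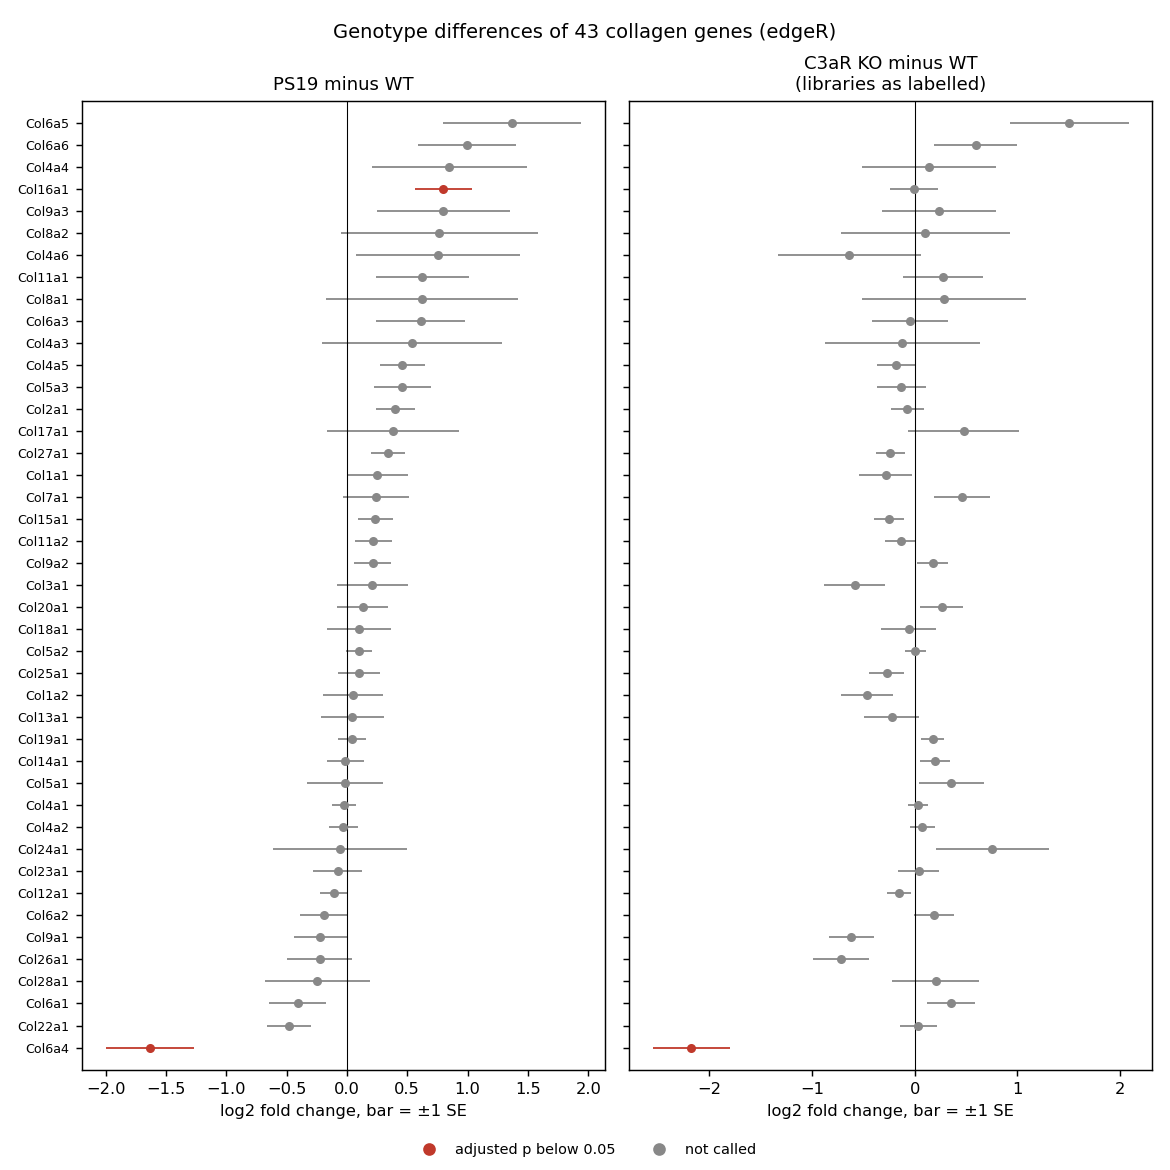
Log2 differences of 43 collagens between PS19 and WT (left) and between libraries labelled C3aR KO and WT (right), with bars of 1 SE and calls at an edgeR adjusted p below 0.05 in red. Col6a4 is the lowest and is called in both panels, Col16a1 is called in the left panel, and both panels share the 5 WT libraries.

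The other genotype comparisons called no collagen. Between PS19/C3aR KO and PS19, edgeR and DESeq2 each called 0 of 43, where edgeR called 0.252% of all genes. At an unadjusted p below 0.05 there was 1, against 14.5% of all genes. It was Col4a6, a type IV chain of smooth muscle and epithelial basement membranes, at 3.72, 3.26, 6.09, 4.67 and 2.21 CPM in PS19. In PS19/C3aR KO library 1 it was at 5.02 CPM and in libraries 2 to 5 at 0.34, 0.26, 0.31 and 0.38, a level otherwise met only in C3aR KO library 3, at 0.16, with C3aR KO library 1 at 0.67. The difference was -1.68 ± 0.71 (log2, SE, edgeR adjusted p = 0.28), and without PS19/C3aR KO library 1 it was -3.62 ± 0.54 and called (adjusted p = 0.011). Col6a1 differed by 0.49 ± 0.24 and Col4a5 by -0.37 ± 0.18, neither called.

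Between PS19/C3aR KO and C3aR KO, edgeR and DESeq2 again called 0 of 43, where edgeR called 0.006% of all genes. At an unadjusted p below 0.05 there were 4, against 9.71% of all genes. Col3a1 differed by 0.71 ± 0.30, Col22a1 by -0.41 ± 0.18 and Col5a3 by 0.52 ± 0.24 (log2, SE). With the fibroblast score in the fit Col3a1 differed by 0.23 ± 0.20, and without C3aR KO library 5 Col22a1 differed by -0.24 ± 0.17. The value of Col5a3, a type V chain, rested on PS19/C3aR KO library 1, at 14.5 CPM against 4.42 to 6.84 in libraries 2 to 5. Without that library it was 0.12 ± 0.14. The interaction takes the PS19 to WT difference from the difference between PS19/C3aR KO and C3aR KO. It called 0 of 43 by edgeR and by DESeq2, where edgeR called 0.012% of all genes. At an unadjusted p below 0.05 there was 1, against 4.15% of all genes. This was Col6a4, with an interaction of 1.59 ± 0.53 (log2, SE, unadjusted p = 0.0074, edgeR adjusted p = 0.9995). Its level was already low in the libraries labelled C3aR KO.

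The enzymes and receptors that handle collagen included more calls than the collagens, and the difference in share was not tested. Of 32 tested genes that modify, fold and crosslink collagen, 7 rose and 0 fell between PS19 and WT, where 7.5% of all genes rose and 3.32% fell, with a median log2 difference of 0.19. P4hb, a subunit of prolyl hydroxylase, stood at 124.4 CPM in PS19 and 109.0 in WT (mean, n = 5), a difference of 0.19 ± 0.04 (log2, SE, edgeR adjusted p = 0.0050). Plod1, a lysyl hydroxylase, rose by 0.53 ± 0.12 (edgeR adjusted p = 0.0065). Lox, which crosslinks collagen and elastin, was at 5.33, 2.62, 3.32, 3.54 and 0.84 CPM in PS19 and 0.83 to 1.41 in WT, so PS19 library 5 again lay in the WT range. The other 4 were Fkbp10, Loxl3, P4ha3 and Plod3.

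Of 19 receptors and turnover genes, 6 rose and 0 fell, against the same 7.5% and 3.32% of all genes, with a median of 0.25. Ddr1, a collagen receptor of oligodendrocytes and epithelia, stood at 137.9 CPM in PS19 and 95.1 in WT and was higher in all 5 (0.54 ± 0.11, edgeR adjusted p = 0.0036). Timp1, an inhibitor of collagenases that reactive astrocytes make, and Lair1, an immune receptor for collagen, rose by 1.76 ± 0.38 and 0.79 ± 0.18 (edgeR adjusted p = 0.0053 and 0.0089). The remaining 3 were Itgb1, Mmp2 and Sparc. Without PS19 library 3 or 4 or WT library 4, the count was 3 in place of 6. When the Rn45s share entered the fit, the counts were 0 of 32 and 1 of 19, while calls over all genes went from 1803 to 431. Only PS19 library 5 reached the WT range of that share, so this fit can hardly tell its part from that of genotype. Of 18 laminins and other basement membrane partners, none was called by edgeR, with 2 at an unadjusted p below 0.05, and their median was -0.11. In the other 4 comparisons edgeR called none of the 3 lists' genes. Between PS19/C3aR KO and PS19, 9, 3 and 1 of them had an unadjusted p below 0.05 (14.5% of all genes), and DESeq2 called 2, 1 and 0. Between PS19/C3aR KO and C3aR KO, 2, 6 and 0 did (9.71% of all genes), and DESeq2 called 0, 1 and 0. In the remaining comparisons DESeq2 called 0, with 0, 0 and 2 at that p between C3aR KO and WT and 3, 0 and 0 for the interaction. With the choroid score, 8 of 32, 3 of 19 and 5 of 18 genes were higher and 0, 0 and 2 lower, where 10.2% and 9.4% of all genes were. Astrocyte markers moved with these lists: they summed to 5219 to 5640 CPM in WT and 6291 to 10055 in PS19. Their part in the result was not tested beyond the covariate fit, in which both counts were 0 and 5 genes of 16657 were called. That fit cannot decide it, because the astrocyte list holds Timp1 and its score did not overlap between WT (5.03 to 5.42) and PS19 (5.50 to 7.01).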

How the data were processed

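Polyadenylated RNA of 20 hippocampus libraries was read as 76-nt pairs, per the labels' protocols. The authors aligned reads to mm10 with TopHat2 2.0.9 and counted those over each gene's exons with HTSeq, per the labels; the deposited files hold these counts without normalization. DESeq2 is named in the submitters' processing notes without a role. For strand setting and annotation: not given in the sources used here. The labels do not say that libraries came from separate animals, so p-values measure the spread between libraries, which may be technical. The 5 summary lines per file were left out (reads over no gene were 17.4 to 25.4%).

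Genotype groups and replicate numbers came from the titles. All 20 libraries entered 1 quasi-likelihood fit (edgeR 4.0.16 under R 4.3.3; TMM, filterByExpr with minimum count 10 and total 15, Benjamini-Hochberg over 16657 genes, calls below 0.05). Levels are TMM-scaled CPM; collagen sums and levels per kb use unscaled CPM, with exon lengths from GENCODE vM21. The SE is the log2 value over the square root of F. A marker score (mean log2 CPM, prior count 2), divided by its SD, was added to the genotype fit to give slopes. Positions and upstream sequences are from RefSeq GRCm38.p6.

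The collagens, lists and tests were chosen with earlier results of these data known. Named members are those called, the 3 with the lowest p in each genotype comparison, the 8 highest per length, the 4 with the lowest p per planned score and the partner chains of these; up to 3 called genes were named per pathway list. Other members, and the score lists for astrocytes, microglia, oligodendrocytes, ependyma and thalamus, were chosen after their values were seen. On simulated counts for PS19 minus WT over 16657 genes, the test recovered 82% of genes changed 2-fold and 63% of those changed 1.5-fold, with 3 false among 148 calls; for the choroid slope it recovered 99% and 90%, with 6 false among 195.

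The alternatives were DESeq2 size factors and DESeq2's test, no filter, a replicate block, covariates, fits of the 2 groups alone and each library left out. No pair of libraries of 1 group agreed within sampling noise (chi-square per degree of freedom of at least 9.00).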

Additional observations from a re-analysis of the deposited data

Results flagged for a closer look

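A library was picked out where its gap to the nearest other library of its group of 5 was more than 0.71 of the group's range. Among 31 named collagens in 4 groups, 12 of 124 combinations met this, and chance picks about 1 in 20 groups. WT library 2 was picked out most often, as the highest for Col6a4 (7.19 CPM), Col26a1 (6.58 CPM) and Col5a1 (54.8 CPM) and the lowest for Col25a1 (61.0 CPM); it had the lowest choroid plexus score in WT, 0.69. PS19 library 3 was the highest for both type I chains, Col1a1 (24.5 CPM) and Col1a2 (32.1 CPM), and PS19 library 5 for Col6a4 (2.60 CPM) and Col17a1 (0.839 CPM). PS19/C3aR KO library 1 was the highest for Col4a6 (5.02 CPM) and Col5a3 (14.5 CPM), and library 2 for Col22a1 (4.54 CPM). C3aR KO library 5 was the lowest for Col11a2 (29.8 CPM, the others 44.9 to 45.8).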

How the results depend on the processing

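Between PS19 and WT, the count of 2 collagens called became 0 when the Rn45s share entered the fit, 0 when the astrocyte score did and 7 in a fit of these 2 groups alone, and was 1 to 4 without each library (4 without PS19/C3aR KO replicate 1). Between C3aR KO and WT, the count of 1 became 0 with the Rn45s share, 0 in a fit of the 2 groups alone, and 0 to 1 without each library. Between PS19/C3aR KO and PS19 it was 0 to 1 without each library. The choroid slope count of 16 became 5 in the 11 libraries with high scores, 0 in the 9 with low scores, and 14 to 17 without each library. The mural slope count was 0 to 1 without each library. The labels do not say whether libraries with the same replicate number belong together, and the correlations do not settle it. Of 30 same-number pairs, 16 correlated above 0.1, with a median of 0.14 against -0.042 for other numbers. Of 20 libraries, 6 correlated best with their own number. With the replicate number as a block, the choroid count was 5 (Col4a3, Col4a4, Col8a1, Col8a2 and Col9a3), the ependyma count 4 and the mural count 0, and the genotype counts were 2, 1, 0, 0 and 0. The block also ended the calls of Col6a3 on the ependyma score (0.38, edgeR adjusted p = 0.39) and Col6a2 on the oligodendrocyte score (-0.36, edgeR adjusted p = 0.070). All 4 libraries numbered 1 had a high choroid score. Signs turned for Col16a1 between PS19 and WT with the astrocyte covariate (-0.46), and for choroid slopes of Col17a1 (-0.14) and Col8a1 (-0.051) in the low libraries and of Col5a1 (0.0066) and Col6a2 (0.0028) in the high ones, none called. The astrocyte covariate and the split by choroid score were added after the data were seen. Smaller fits hold fewer libraries, and slopes of the split are per SD of the score within each part. Beyond that the cause was not tested. For most of these alternatives, DESeq2 among them, the share of all genes called in the same fit is not given here. A change in a collagen count therefore cannot be told apart from a change in calls over all genes. The filter, DESeq2 size factors and, for genotype, DESeq2 kept each collagen count within 1.5 times; DESeq2's pathway list counts are given above. Low counts limit Col17a1, Col4a6, Col6a4 and Col6a6.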
